A study of Mus musculus with 2 samples.

Results

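Mesenchymal cells with at least 2 Shox2 UMIs were examined in the lambdoid junction of the mouse embryo at E11.5, the seam where the medial nasal, lateral nasal and maxillary processes meet to form the upper lip and primary palate. A UMI, or unique molecular identifier, marks 1 captured transcript molecule. The cells were chosen by their own transcripts. Each had at most 10% mitochondrial UMIs, 3 or more summed UMIs of Prrx1, Prrx2 and Twist1, at most 1 Epcam UMI, at least 2 Shox2 UMIs, at most 1 Asb4 UMI and at most 2 Sox9 UMIs. These limits held 535 of 14860 barcodes, of which 177 came from the library titled CrectLJ and 358 from the wild-type library. CrectLJ was made from Crect; ROSA26-lacZ embryos and the other library from wild-type embryos, both on C57BL/6J. Crect is a Cre transgene made for ectoderm with regulatory sequence of Tfap2a, and ROSA26-lacZ is a reporter at the ROSA26 locus. Each library pooled microdissected, trypsin-dissociated tissue of 4 to 5 embryos and was sequenced as 10x Genomics 3' droplets. With 1 library per genotype, genotype and library cannot be told apart, and no test was made between them. The comparisons below set classes of cells within both libraries against each other.

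Shox2 encodes a homeodomain transcription factor, and in mice its loss causes a cleft within the anterior palate. Foxf1 and Foxf2 encode forkhead factors of mesenchyme that are known targets of Hedgehog signalling, and loss of Foxf2 in mice causes cleft palate. In that pathway a ligand such as Shh, made by facial epithelium, binds the receptor Ptch1 with the help of the co-receptors Gas1, Cdon and Boc. Binding frees the signal transducer Smo, and Gli transcription factors then raise Gli1, Ptch1 and Hhip, of which Ptch1 and Hhip hold the pathway back. Frzb encodes a secreted Wnt inhibitor and Epha3 a receptor for ephrin-A ligands.

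CrectLJ held 6894 barcodes and 127765199 UMIs, and the wild-type library held 7966 barcodes and 126638790 UMIs. The Shox2 cells had a median of 22606 UMIs per cell in CrectLJ and 17460 in the wild-type library, against 17562 and 13544 in all other mesenchymal cells (5311 and 5901 cells). A gate on raw UMIs takes deeper cells more readily, so calls are also given within a window of UMIs per cell and shares after thinning. Their median mitochondrial share was 3.60% in CrectLJ and 2.99% in the wild-type library, beside 3.72% and 3.16% in the other mesenchyme. The libraries shared 76 barcode sequences, of which 1 was a Shox2 cell in CrectLJ and 4 were Shox2 cells in the wild-type library. All levels below are CPM: a gene's UMIs summed over the cells of a class in 1 library, per 1000000 UMIs of those cells. A pair of levels given for 1 class is that of CrectLJ and of the wild-type library. Called means an adjusted p under 0.05 in edgeR's quasi-likelihood test (Benjamini-Hochberg over all genes tested) and a fold of at least 1.5, in a fit of 4 summed profiles (2 libraries by 2 classes) with the library as a term. That fit has 1 residual degree of freedom. Its p-values set the class difference against how far that difference varied between the 2 libraries, pooled over genes. Differences in level between the libraries go into the library term and are not part of that spread. SE is the standard error of the fitted log2 fold change.

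The name maxillary mesenchyme was borne out in part. Lhx8, a LIM homeobox gene of maxillary and oral mesenchyme, was at 302.9 CPM in CrectLJ and 339.7 in wild-type Shox2 cells, against 95.1 and 136.7 in other mesenchyme. Of the Shox2 cells, 145 of 177 in CrectLJ and 314 of 358 in the wild-type library had at least 2 Lhx8 UMIs. Pax7, a marker of lateral nasal mesenchyme, reached that count in 2 and 8 of them. Dlx2, a first-arch homeobox gene, was at 14.6 and 15.5 CPM in Shox2 cells, against 6.76 and 8.07. Lhx6 and Barx1, of maxillary and proximal arch mesenchyme, were not called higher. Lhx6 was at 6.91 and 6.53 in Shox2 cells, against 6.27 and 4.49. Barx1, a homeobox gene, was at 6.17 and 1.55 in Shox2 cells, against 11.2 and 3.44, and was called lower (log2 fold change -0.92). Alx1, a homeobox gene of frontonasal mesenchyme, stayed abundant, with 373.5 and 509.3 CPM in Shox2 cells and 490.8 and 666.9 in other mesenchyme (log2 fold change -0.37, not called). The cells are therefore called Shox2 cells here, after the gene that chose them.

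The 5 genes given as markers chose or helped to propose these cells, so their levels are a description with no test. Shox2 itself was at 149.97 CPM in CrectLJ and 218.6 in wild-type Shox2 cells, against 16.6 and 25.4 in other mesenchyme. Foxf2 was at 47.6 and 52.7 in Shox2 cells, against 16.8 and 14.8, and Epha3 was at 121.6 and 135.0 in Shox2 cells, against 64.0 and 50.2. Frzb was at 132.7 and 150.7 in Shox2 cells, against 84.8 and 57.1. These 4 genes stood higher in the Shox2 cells of both libraries. Foxf1 did so in 1 library: it was at 18.99 CPM in CrectLJ Shox2 cells against 20.1 in other mesenchyme, a ratio of 0.946 (95% Poisson interval 0.743 to 1.19), and at 14.9 against 7.37 in the wild-type library, a ratio of 2.03 (1.62 to 2.51). Poisson and binomial intervals in this text cover counting error only.

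The Shox2 limit divided a continuous range. In CrectLJ 4565 gated mesenchymal cells had no Shox2 UMI, 475 had 1 and 448 had 2 or more, and in the wild-type library these counts were 4963, 583 and 713. Among the Shox2 cells 84 in CrectLJ and 135 in the wild-type library had exactly 2 UMIs and so lay on the limit, and the median was 3 UMIs in both. Cells with 1 Shox2 UMI, just outside, lay between those with 0 and those with 2 in Lhx8, Foxf2, Ptch1, Epha3 and Pax3. In CrectLJ Lhx8 was at 78.0, 168.8, 281.9, 320.2 and 324.5 CPM in cells with 0, 1, 2, 3 to 4 and 5 or more Shox2 UMIs, and Foxf2 at 8.43, 24.9, 34.9, 59.7 and 58.0. In the wild-type library Lhx8 was at 103.4, 238.5, 339.2, 324.4 and 357.5 over the same counts, and Foxf2 at 8.23, 28.9, 47.8, 53.4 and 57.5. Most of the gain in Lhx8 thus lay between 0 and 2 UMIs, in the steps up to and across the limit. Ptch1 and Epha3 went on upward within the Shox2 cells: Ptch1 was at 93.8, 124.6 and 140.7 in CrectLJ cells with 2, 3 to 4 and 5 or more Shox2 UMIs, and at 97.0, 101.4 and 135.1 in wild-type cells. Scx, a tendon progenitor factor, was low throughout, at 4.17, 9.06 and 17.3 in CrectLJ and 8.34, 7.24 and 13.4 in the wild-type library. Genes of other facial regions ran downward. Pax3, a paired-box gene of nasal mesenchyme, was at 146.9, 134.3, 65.1, 69.5 and 66.6 from 0 to 5 or more Shox2 UMIs in CrectLJ, and at 254.4, 157.3, 112.8, 99.5 and 81.1 in the wild-type library. Deeper cells reach higher Shox2 counts more readily, so the order is one of counts as captured.

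**Figure D1:**
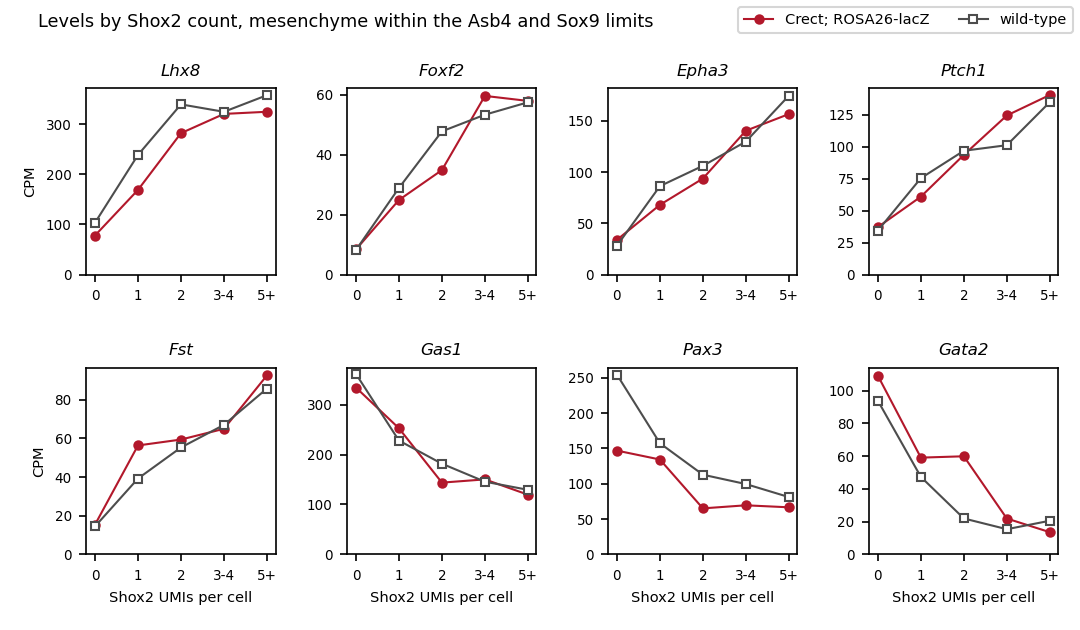
CPM (vertical axes, linear, from 0) of 8 genes in mesenchymal cells within the Asb4 and Sox9 limits, grouped by Shox2 UMIs per cell (horizontal axes) in the CrectLJ library (Crect; ROSA26-lacZ, red circles) and the wild-type library (open squares). Each point is 1 sum over cells of 1 library, with no error bar; Lhx8, Foxf2, Epha3, Ptch1 and Fst are higher in cells with 2 or more Shox2 UMIs than in cells with none, and Gas1, Pax3 and Gata2 are lower, in both libraries.

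The Asb4 and Sox9 limits left other Shox2-bearing mesenchyme in the comparison group. Of 448 gated cells with 2 or more Shox2 UMIs in CrectLJ and 713 in the wild-type library, 177 and 358 were Shox2 cells. The rest counted as other mesenchyme, which is thus not a class without Shox2. Of the gated cells with 2 or more Shox2 UMIs, 253 in CrectLJ and 346 in the wild-type library had more than 1 Asb4 UMI, and 49 and 20 had more than 2 Sox9 UMIs, with 31 and 11 over both limits. Asb4 encodes a subunit of a ubiquitin ligase and Sox9 a factor of cartilage progenitors. Cells just outside the Asb4 limit resembled those just inside in several genes. Lhx8 was at 309.4 CPM in CrectLJ cells with 1 Asb4 UMI and 298.3 in those with 2, and at 356.8 and 366.5 in the wild-type library. Cxcl14, a secreted chemokine, was graded instead: it was at 600.3, 418.0, 230.6 and 111.9 in CrectLJ cells with 0, 1, 2 and 3 or more Asb4 UMIs, and at 761.0, 420.2, 345.0 and 249.0 in wild-type cells. Foxf1 was highest furthest outside the limit, at 32.2 in CrectLJ and 34.8 in wild-type cells with 3 or more Asb4 UMIs.

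Across the whole table the Shox2 cells differed from all other mesenchyme more by genes that were lower than by genes that were higher. Of 14688 genes tested, 158 (1.08%) were called higher and 494 (3.36%) lower in Shox2 cells, and the median log2 fold change of all genes was -0.01. At an unadjusted p under 0.05, 1430 of the 14688 lay higher and 1621 lower, the background for such counts by list below. Among named genes, which had a mean of at least 20 CPM, the higher were led by Fst, Lhx8, Cxcl14 and Rps6ka3, and the lower by Gsc, Pf4, Pax7, Stmn2 and Cd34. The cells were proposed from these same libraries, so these differences describe them and are no independent evidence that they are a separate type. The same holds for the counts by gene list below. DESeq2 called 100 genes higher and 192 lower on the same sums. Without barcodes that held transcripts of other cell types edgeR called 165 higher and 330 lower, and within a window of 10000 to 30000 UMIs per cell 165 and 378. Without the library term edgeR called 0 in either direction, beside 232 higher and 716 lower at an unadjusted p under 0.05.

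Hedgehog pathway genes moved in both directions by role. Of 16 tested members of the pathway list, 4 were called higher in Shox2 cells (among them Ptch1, Gli1 and Hhip) and 4 lower (Gas1, Cdon, Boc and Scube1), with a list median log2 fold change of -0.03. Ptch1, Gli1 and Hhip are the transcriptional targets named above. Gas1, Cdon and Boc are the 3 co-receptors, and Scube1 belongs to a family of secreted proteins that assist release of the ligand. Ptch1 was at 113.2 CPM in CrectLJ and 110.0 in wild-type Shox2 cells, against 51.1 and 47.7 in other mesenchyme. Both Shox2 sums lay above both others, with a log2 fold change of 1.20 ± 0.05 (SE, edgeR adjusted p = 6.42e-11). Gli1, the pathway's activator factor, was at 34.5 and 23.3 in Shox2 cells, against 14.1 and 11.03 in other mesenchyme (log2 fold change 1.20 ± 0.12, edgeR adjusted p = 1.19e-06). Hhip, a decoy receptor, was at 4.44 and 3.57 in Shox2 cells, against 2.2001 and 1.92 (0.97 ± 0.26, edgeR adjusted p = 0.0251). Hhip lay nearest the limit of a call of these 3. The co-receptors took the opposite course. Gas1 was at 141.1 in CrectLJ and 153.5 in wild-type Shox2 cells, against 276.9 and 316.2 in other mesenchyme (log2 fold change -0.99 ± 0.04, edgeR adjusted p = 6.42e-11). Cdon was at 7.40 and 7.77 in Shox2 cells, against 16.7 and 16.6, and Boc was at 11.3 and 10.4 in Shox2 cells, against 19.6 and 16.7. The components between receptor and target were not called: Smo was at 102.9 and 101.8 in Shox2 cells and 98.4 and 101.7 in other mesenchyme, and Gli2, Gli3 and the inhibitor Sufu were not called either. Ligand transcripts were near 0, with Shh at 0.493 and 0.155 in Shox2 cells against 0.373 and 0.251, and with no Ihh or Dhh UMI in the Shox2 cells of either library, where 3 UMIs would give 0.740 and 0.466 CPM. DESeq2 called 2 of the list higher and 2 lower, and a gate of 1 or more Shox2 UMIs also left 2 in each direction.

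**Figure D2:**
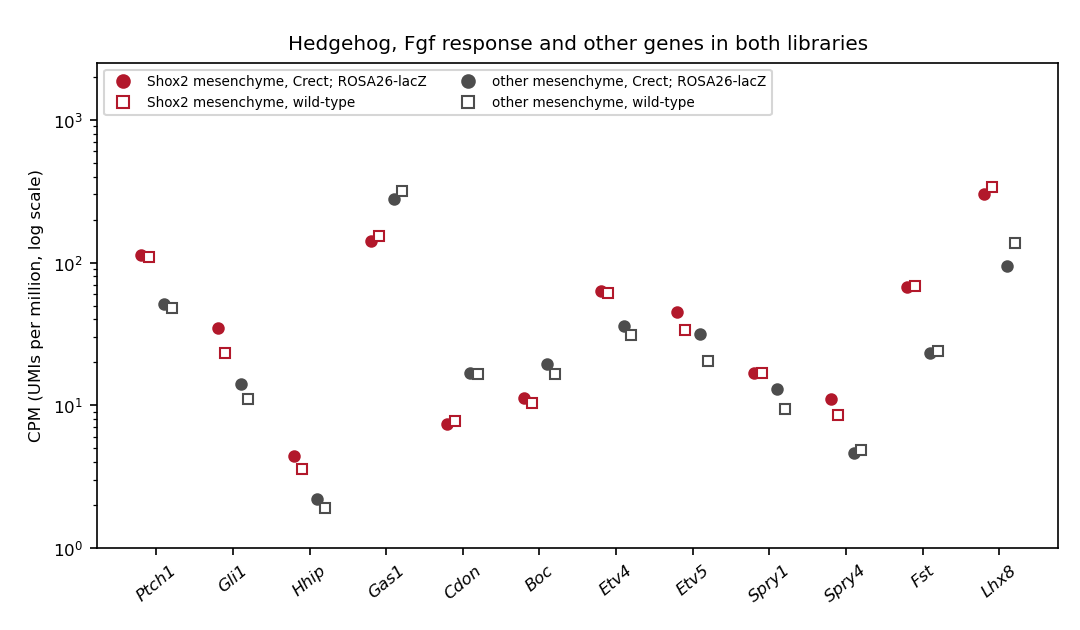
CPM (vertical axis, log scale) of 12 genes in Shox2 cells (red) and other mesenchyme (grey) of the CrectLJ library (Crect; ROSA26-lacZ, filled circles) and the wild-type library (open squares). Each symbol is 1 sum over cells with no error bar; the targets Ptch1, Gli1 and Hhip, the Fgf response genes Etv4, Etv5, Spry1 and Spry4, and Fst and Lhx8 lie higher in Shox2 cells of both libraries, and Gas1, Cdon and Boc lie lower.

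The promoters of Ptch1, the target with the most UMIs in these cells, and of Foxf2, the given forkhead marker that stood apart in both libraries, are shown because both genes are known Hedgehog targets. Each is the RefSeq window of 250 bases before to 50 after the annotated start on GRCm38.p6, printed 5' to 3' on the gene's strand, with every CG pair in capitals. The Ptch1 window lies at chr13:63565686-63565985 on the minus strand, inside the span that GENCODE vM21 gives the gene from its longer transcripts, and the Foxf2 window lies at chr13:31625566-31625865 on the plus strand.
Ptch1: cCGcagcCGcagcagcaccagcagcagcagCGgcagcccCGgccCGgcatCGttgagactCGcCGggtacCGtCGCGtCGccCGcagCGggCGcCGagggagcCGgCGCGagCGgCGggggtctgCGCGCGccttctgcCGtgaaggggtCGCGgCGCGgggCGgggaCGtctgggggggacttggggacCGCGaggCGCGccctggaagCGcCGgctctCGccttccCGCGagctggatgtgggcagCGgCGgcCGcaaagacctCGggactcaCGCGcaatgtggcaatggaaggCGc
Foxf2: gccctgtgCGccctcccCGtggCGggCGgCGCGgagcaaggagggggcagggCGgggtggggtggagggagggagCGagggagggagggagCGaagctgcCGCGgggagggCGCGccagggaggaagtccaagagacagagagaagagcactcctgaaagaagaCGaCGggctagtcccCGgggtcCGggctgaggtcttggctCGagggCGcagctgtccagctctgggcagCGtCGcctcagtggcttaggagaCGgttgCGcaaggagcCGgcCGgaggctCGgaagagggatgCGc
The Ptch1 window holds 47 CG pairs, more than 98.6% of the promoters in the table, and the Foxf2 window holds 27, more than 84.5%, beside a median of 7. Both are thus CpG-rich starts. The Gli motif TGGGTGGTC (GACCACCCA on the other strand, both searched) was in 83 of 32851 promoter windows, a share of 0.253%. It was in 0 of the 18 windows that matched the Hedgehog list and the given markers (17 genes), which says only that these letters are not in these windows.

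Fgf response genes were higher as well. Of 23 tested members of the Fgf list, 5 were called higher (Etv1, Etv4, Etv5, Spry1 and Spry4) and 0 lower, with 3 lower at an unadjusted p under 0.05, a list median of 0.07, and 4 higher and 0 lower by DESeq2. A gate of 1 or more Shox2 UMIs left 2 higher calls. The Etv genes encode ETS transcription factors and the Spry genes feedback inhibitors, both induced by Fgf signalling in many embryonic tissues. Etv4 was at 63.6 CPM in CrectLJ and 60.9 in wild-type Shox2 cells, against 36.0 and 30.9 in other mesenchyme (log2 fold change 0.93 ± 0.07, edgeR adjusted p = 8.73e-08). Spry4 was at 11.1 and 8.55 in Shox2 cells, against 4.63 and 4.87 (1.04 ± 0.18, edgeR adjusted p = 0.000921). Etv5 was at 45.1 and 33.6 in Shox2 cells, against 31.4 and 20.4, so the CrectLJ value of other mesenchyme nearly reached the wild-type value of Shox2 cells. Etv1 was at 28.4 and 37.6 in Shox2 cells, against 22.9 and 20.3 (0.67 ± 0.12, edgeR adjusted p = 0.000888), and its call was lost within a window of UMIs per cell. Dusp6, a phosphatase induced by the same signal, was at 66.1 and 70.1 in Shox2 cells against 47.6 and 47.4, under the fold of a call. The receptor Fgfr1 was at 90.8 and 80.8 in Shox2 cells and 114.2 and 103.7 in other mesenchyme, and was not called. Fgf10 was at 11.6 and 16.6 in Shox2 cells against 12.3 and 13.2, and Fgf8 at 0.493 and 0 in Shox2 cells against 0.818 and 0.684.

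Transcription factors of facial pattern were called in both directions. In the list of maxillary and palatal factors 6 of 46 tested were called higher (among them Lhx8, Dlx2, Meis1, Sall4 and Tshz1) and 15 lower, with a list median of -0.19. In the nasal list 5 of 20 were called higher and 7 lower (median -0.35), and of 5 distal and mandibular genes none was called, with 2 higher at an unadjusted p under 0.05 and 0 calls by DESeq2. Lhx8 had a log2 fold change of 1.51 ± 0.06 (edgeR adjusted p = 5.27e-11). Meis1, a TALE homeobox gene, was at 162.6 and 209.8 in Shox2 cells, against 88.4 and 114.5. Tfap2c, an AP-2 factor, was at 49.1 and 45.8 in Shox2 cells, against 24.0 and 25.3. Factors of other facial fields were lower in Shox2 cells. Gsc, a homeobox gene, was at 14.1 and 5.13 in Shox2 cells, against 62.4 and 51.5 in other mesenchyme (log2 fold change -2.67 ± 0.16, edgeR adjusted p = 1.87e-09). Pax7 was at 4.19 and 8.55 in Shox2 cells, against 27.3 and 42.5 (-2.41 ± 0.14, edgeR adjusted p = 1.73e-09). Its relative Pax3 was less reduced, at 66.8 and 98.7 in Shox2 cells against 121.4 and 219.2 (-1.02 ± 0.06, edgeR adjusted p = 1.54e-09). Gata2, a zinc-finger factor, was at 38.2 and 19.3 in Shox2 cells, against 105.4 and 83.4, and Irx5, an Iroquois homeobox gene, was at 18.01 and 21.3 in Shox2 cells, against 54.9 and 74.3. Tbx22, a gene of X-linked cleft palate, was at 1.48 and 1.40 in Shox2 cells, against 7.98 and 4.70, and Osr1 was at 4.69 and 0.466 in Shox2 cells, against 11.5 and 5.38. Pax9, a paired-box gene needed for palate and teeth, was at 37.5 and 26.6 in Shox2 cells against 94.6 and 31.9, a difference that lay mostly in CrectLJ.

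The forkhead family to which Foxf1 and Foxf2 belong was not raised as a whole. Besides those 2 genes, 13 members were tested, of which 2 were called higher (Foxd1 and Foxd2) and 4 lower (Foxc1, Foxc2, Foxp1 and Foxp2). Foxd2 was at 11.8 CPM in CrectLJ and 8.39 in wild-type Shox2 cells, against 5.38 and 2.99 in other mesenchyme (log2 fold change 1.33 ± 0.18, edgeR adjusted p = 5.37e-05). Foxd1 was at 5.92 and 1.86 in Shox2 cells against 2.71 and 0.889 (1.13 ± 0.29, edgeR adjusted p = 0.0167). Foxp2 was at 19.2 and 12.1 in Shox2 cells, against 60.2 and 49.3, and Foxp1 at 34.3 and 36.4 in Shox2 cells, against 92.8 and 77.1. Foxc1 was at 7.65 and 2.64 in Shox2 cells, against 17.6 and 5.85. Foxc1, Foxd1 and Foxf1 each stood higher in CrectLJ than in the wild-type library in both classes of cells.

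Secreted signals and their inhibitors were mixed. Fst, which binds and blocks activins, was at 67.8 in CrectLJ and 68.5 in wild-type Shox2 cells, against 23.4 and 24.0 in other mesenchyme. The 4 sums formed 2 tight pairs, with a log2 fold change of 1.54 ± 0.08 (SE, edgeR adjusted p = 1.82e-10), the largest among the named higher genes. Inhba, the activin A subunit, was at 31.6 and 38.8 in Shox2 cells, against 23.4 and 18.9 (0.80 ± 0.12, edgeR adjusted p = 0.000167). Cxcl14 was at 514.6 and 611.4 in Shox2 cells, against 157.4 and 291.1 (1.41 ± 0.09, edgeR adjusted p = 6.42e-09). In the Bmp and Tgf-beta list 3 of 40 were called higher and 6 lower (median -0.12): Bmp4, the chief facial Bmp ligand, was at 142.1 and 142.2 in Shox2 cells against 147.5 and 169.0 and was not called, while Tgfb2 was at 23.4 and 35.0 in Shox2 cells against 47.2 and 60.5 and was called lower. In the Wnt list 1 of 49 was called higher, the agonist Rspo1, and 5 lower (median 0.01). Rspo2, its relative, was at 23.2 and 21.6 in Shox2 cells, against 56.3 and 62.5, and the inhibitor Dkk2 was at 27.1 and 22.1 in Shox2 cells, against 52.7 and 56.8. Axin2, a general Wnt target, was at 55.0 and 64.2 in Shox2 cells against 41.6 and 66.8, with the libraries in opposite order. Igf1, a growth factor, was at 51.1 and 24.4 in Shox2 cells, against 124.1 and 113.9, and Ptn, a heparin-binding growth factor, was at 445.0 and 645.4 in Shox2 cells, against 761.8 and 1134. Dlk1, a membrane protein of progenitor cells, was at 142.1 and 96.2 in Shox2 cells, against 98.1 and 48.8.

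**Figure D3:**
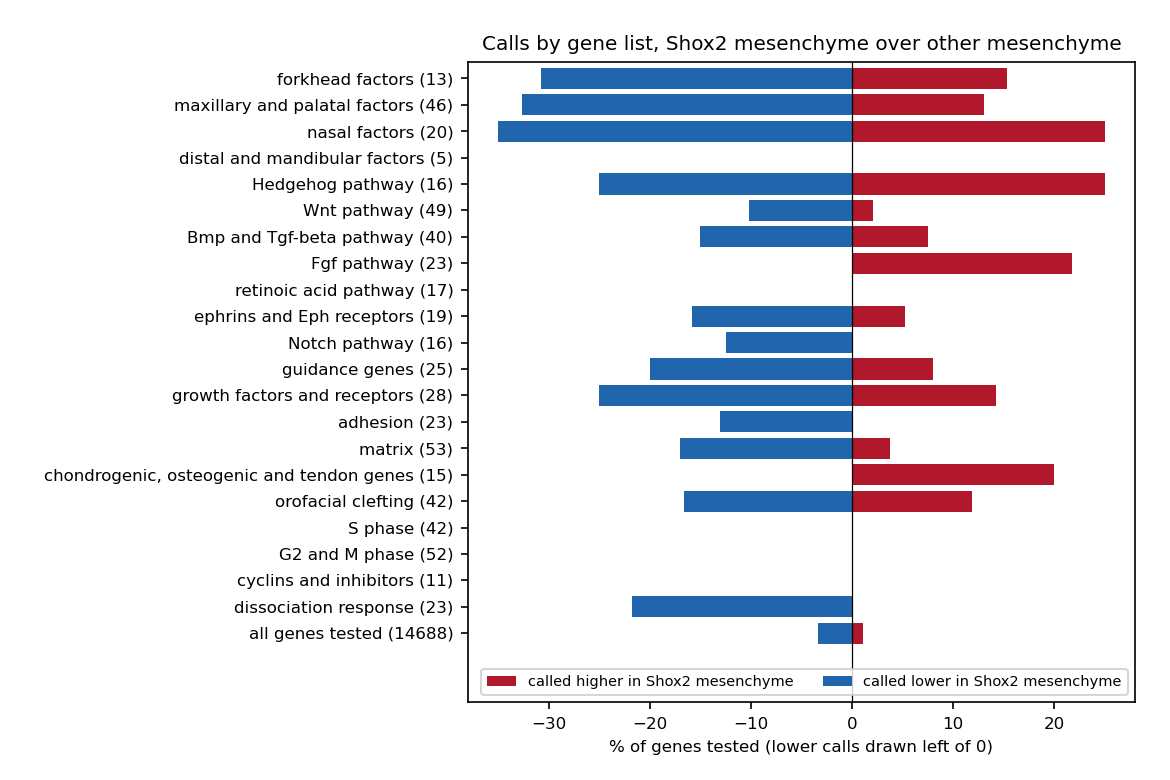
Share of tested genes of each list (number tested in brackets) called higher (red, right of 0) or lower (blue, left of 0) in Shox2 cells over other mesenchyme, in percent on the horizontal axis, with all 14688 genes tested at the foot. The Fgf list and the chondrogenic, osteogenic and tendon list have calls in the higher direction alone, the Hedgehog list has 4 in each direction, and the S phase, G2 and M phase and retinoic acid lists have none.

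The remaining lists concern the cell surface, matrix and cell state. Of 19 ephrin and Eph genes 1 was called higher, Epha7 (172.4 and 198.6 in Shox2 cells, against 116.0 and 134.4), and 3 lower, among them Efnb2 (12.1 and 20.0, against 28.8 and 25.3). Epha7 lay at the limit of a call, with a fold of 1.502. Its call was lost without barcodes of other cell types, without the filter on low counts, and with a gate of 1 or more Shox2 UMIs. Of 25 guidance genes 2 were called higher and 5 lower. The semaphorin receptor Nrp2 was at 132.0 and 156.9 in Shox2 cells, against 69.2 and 84.2, while Nrp1 was at 10.6 and 4.35 in Shox2 cells, against 31.7 and 17.7. Of 53 matrix genes 2 were called higher (Col13a1 and Col9a1) and 9 lower, among them Sparc, a matrix glycoprotein, at 129.0 and 113.4 in Shox2 cells against 204.8 and 202.2. Of 28 growth factors and receptors 4 were called higher and 7 lower, and Gpc3, a glypican of that list, was at 299.7 and 519.3 in Shox2 cells against 184.4 and 255.4. Of 15 tested chondrogenic, osteogenic and tendon genes 3 were called higher and 0 lower, with 1 lower at an unadjusted p under 0.05. Col9a1, a cartilage collagen, differed between the libraries: it was at 36.0 in Shox2 cells against 33.8 in CrectLJ, a ratio of 1.06, and at 43.7 against 18.4 in the wild-type library, a ratio of 2.37. Col2a1, the main cartilage collagen, was at 39.0 and 25.3 in Shox2 cells against 54.4 and 29.0, and was not called. Cell cycle genes gave no call by edgeR or DESeq2 among 42 S phase and 52 G2 and M phase genes. At an unadjusted edgeR p under 0.05, 9 S phase genes lay higher and 2 lower, and 31 G2 and M phase genes lay higher and 0 lower, with list medians of 0.06 and 0.15. Over all 14688 genes tested, 1430 lay higher and 1621 lower at that p. The 31 became 14 within the UMI window and 0 without the library term. Of 17 retinoic acid genes 0 were called by either tool, with 3 higher and 7 lower at an unadjusted p under 0.05. Of 23 genes known to respond to tissue dissociation 5 were called lower (Hspb1, Jun, Junb, Klf2 and Klf4) and 0 higher. Jun was at 79.2 and 79.7 in Shox2 cells, against 128.6 and 180.2. Part of the lower calls in these lists went without barcodes that held transcripts of other cell types. EdgeR then called 3 guidance genes higher and 3 lower, and 2 matrix genes higher and 8 lower. It called 4 growth factors and receptors higher and 5 lower, and 0 dissociation genes higher and 3 lower.

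Markers of other cell types moved with part of the lower calls. The endothelial markers summed to 13.6 CPM in CrectLJ and 12.4 in wild-type Shox2 cells, against 83.9 and 68.8 in other mesenchyme. All 6 were called lower. The Asb4 and Sox9 limits held for Shox2 cells alone, and 37 of 37 CrectLJ endothelial cells had an Asb4 UMI. Against mesenchyme with 0 Shox2 UMIs under the same limits, edgeR called 0 endothelial genes lower, with 0 at an unadjusted p under 0.05. These 6 calls thus depended on which mesenchyme was the reference. That reference also left out every cell with a Shox2 UMI, and the part of the Asb4 limit alone was not tested. The macrophage markers summed to 4.44 and 8.70 in Shox2 cells, against 23.6 and 32.2, with 5 of 6 called lower and Csf1r at 0 in CrectLJ Shox2 cells. The neuronal markers summed to 41.9 and 41.0 in Shox2 cells, against 82.5 and 99.99, with 2 of 5 called lower. An alternative chosen after seeing the data left out barcodes with transcripts of other cell types (1 and 2 Shox2 cells, 107 and 134 other mesenchymal cells). These had over 5% globin UMIs, or 3 or more summed UMIs of Cdh5, Kdr and Cldn5, or of C1qa, C1qb, C1qc and Tyrobp. It left 0 edgeR calls in the endothelial and macrophage lists, with 0 and 1 lower at an unadjusted p under 0.05. Those lists hold the genes of the filter, so the fall in their calls was largely set in advance and decides nothing. DESeq2, with all barcodes, called 5 endothelial and 4 macrophage markers lower. Of the genes that lead the lower calls, Pf4, a platelet and macrophage chemokine, was at 3.95 and 10.4 in Shox2 cells against 12.7 and 67.9. It was not lower within a UMI window or without the barcodes of highest Scrublet (doublet) score. Cd34, a vascular and progenitor surface marker, was at 6.91 and 9.01 in Shox2 cells against 34.3 and 30.5. Its log2 fold change of -1.95 ± 0.14 was -1.20 without those barcodes. Stmn2, a tubulin-binding protein best known from neurons, was at 9.87 and 11.7 in Shox2 cells against 43.5 and 49.8. Erythroid transcripts summed to 10802 and 6046 CPM in Shox2 cells, against 4828 and 17155 in other mesenchyme, in opposite order in the libraries. Of the Shox2 cells, 1 in CrectLJ was 56.7% globin UMIs and 2 in the wild-type library were 32.1% and 34.7%, while all others held at most 0.376% and 0.610%. Ectoderm markers summed to 37.7 and 22.8 in Shox2 cells, against 35.3 and 26.4, and crest glia markers to 6.41 and 7.15, against 12.6 and 6.59, with Foxd3 at 0 in Shox2 cells of both libraries.

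**Figure D4:**
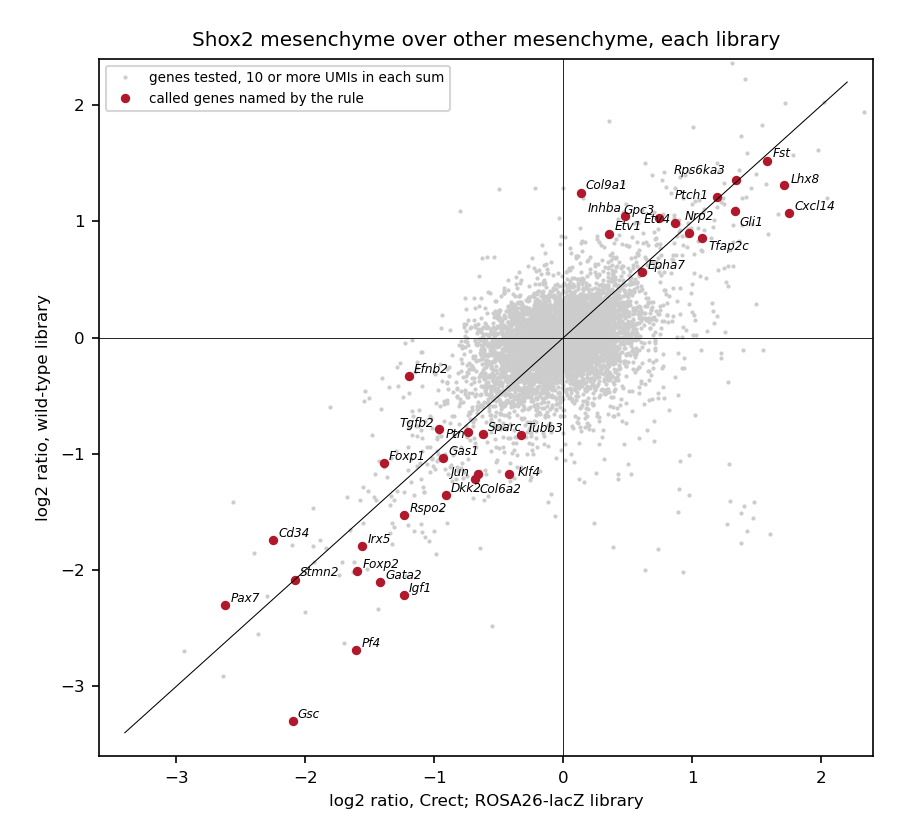
Log2 ratio of Shox2 cells over other mesenchyme in the CrectLJ library (Crect; ROSA26-lacZ, horizontal axis) and the wild-type library (vertical axis). Grey points are tested genes with 10 or more UMIs in each sum, red points called genes with their names, and the line marks equal ratios; the naming rule asked for the same sign in both libraries, Col9a1 lies well above the line and Gsc and Pf4 well below it, and the grey points at lower right include globin and other erythroid genes.

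Lhx8 also marked a larger mesenchymal population that lacked Shox2 UMIs, and the Shox2 cells were set against it. This class held 889 cells in CrectLJ and 1320 in the wild-type library (at least 2 Lhx8 UMIs, 0 Shox2 UMIs, and the same Asb4 and Sox9 limits), with medians of 19028 and 15082 UMIs per cell. Of 12433 genes tested, 129 (1.04%) were called higher and 197 (1.58%) lower in Shox2 cells. Foxf2 was at 47.6 and 52.7 in Shox2 cells, against 18.998 and 17.4 in Lhx8 cells, Frzb at 132.7 and 150.7 in Shox2 cells, against 65.6 and 64.6, and Epha3 at 121.6 and 135.0 in Shox2 cells, against 51.4 and 51.2. Fst again led the higher genes, with 67.8 and 68.5 CPM in Shox2 cells, against 17.5 and 21.8 in Lhx8 cells (log2 fold change 1.80 ± 0.09, edgeR adjusted p = 1.50e-07). Bnc2, a zinc-finger factor of palatal and other mesenchyme, was at 28.1 and 34.5 in Shox2 cells, against 9.81 and 11.4, and Hs6st2, a heparan sulfate sulfotransferase, at 28.9 and 37.0 in Shox2 cells, against 11.996 and 13.4. The largest lower change was that of Calb2, the calcium-binding protein calretinin: 3.21 and 3.26 in Shox2 cells, against 66.1 and 34.6 in Lhx8 cells (-3.82 ± 0.18, edgeR adjusted p = 5.63e-08). Nbl1, a secreted Bmp antagonist, was at 106.3 and 98.4 in Shox2 cells, against 303.7 and 299.2 (-1.54 ± 0.05, edgeR adjusted p = 4.93e-09). Hey2, a Notch target, had 14.6 and 13.2 in Shox2 cells, against 33.0 and 37.0.

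Against the Lhx8 cells the Hedgehog and Fgf lists again held higher calls. In the Hedgehog list 3 of 15 tested were called higher (Ptch1, Gli1 and Hhip) and 1 lower (Gas1). Ptch1 was at 113.2 and 110.0 in Shox2 cells, against 59.6 and 55.6 in Lhx8 cells (log2 fold change 0.98 ± 0.05, edgeR adjusted p = 1.02e-07), and Gli1 at 34.5 and 23.3 in Shox2 cells, against 19.3 and 14.0. In the Fgf list 6 of 18 were called higher and 0 lower (all genes had a median of 0.00). Dusp6 was at 66.1 and 70.1 in Shox2 cells, against 25.9 and 26.8 in Lhx8 cells (1.40 ± 0.07, edgeR adjusted p = 1.83e-07), and Fgf10, a ligand made by mesenchyme, at 11.6 and 16.6 in Shox2 cells, against 6.49 and 7.35 (1.07, edgeR adjusted p = 0.00116). The maxillary and palatal list had 6 of 42 called higher and 7 lower. Osr2, a zinc-finger factor of the palatal shelf, was at 23.4 and 23.9 in Shox2 cells, against 11.7 and 6.22 in Lhx8 cells (1.51 ± 0.18, edgeR adjusted p = 0.000222), and Lhx6 was at 6.91 and 6.53 in Shox2 cells, against 3.39 and 3.01. Several signalling and Bmp-response genes were called lower: Bmp4 was at 142.1 and 142.2 in Shox2 cells against 250.9 and 225.7, Wnt5a at 144.6 and 156.3 in Shox2 cells against 258.9 and 272.1, and Msx2, a Bmp-responsive homeobox gene, at 109.5 and 137.8 in Shox2 cells against 243.0 and 291.2. Endothelial and macrophage lists had 0 edgeR calls here, and 0 at an unadjusted p under 0.05. The comparisons with Lhx8 cells, with Pax7 cells and with all other mesenchyme share the same Shox2 sums, so their likeness is not independent.

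The mesenchymal cells marked by Pax7 gave the most calls of the 3 comparisons. They numbered 476 in CrectLJ and 731 in the wild-type library, and 469 of 11953 genes (3.92%) were called higher and 503 (4.21%) lower in Shox2 cells. DESeq2 called 193 higher and 164 lower. Genes used in either gate were not tested. Lhx8 was at 302.9 and 339.7 in Shox2 cells, against 22.6 and 20.8 in Pax7 cells (log2 fold change 3.90 ± 0.07). Fst was at 67.8 and 68.5 in Shox2 cells, against 4.78 and 6.92. Ptch1 was at 113.2 and 110.0 in Shox2 cells, against 19.4 and 19.5, and Gas1 at 141.1 and 153.5 in Shox2 cells, against 414.9 and 438.4, so the opposed levels of target and co-receptor were widest here. Foxf1 was at 18.99 and 14.9 in Shox2 cells, against 1.46 and 0.506, and Foxf2 at 47.6 and 52.7 in Shox2 cells, against 0.878 and 2.28. Gsc was at 14.1 and 5.13 in Shox2 cells, against 135.5 and 143.8 (-4.01 ± 0.10), and Tcf15, a bHLH factor, at 5.92 and 4.04 in Shox2 cells, against 67.6 and 79.4. In the Hedgehog list 4 of 15 were called higher and 5 lower, in the Fgf list 4 of 17 higher and 0 lower, and in the maxillary and palatal list 15 of 42 higher and 18 lower. In this fit and in the one on Foxf below, edgeR took the spread of each gene from all genes together, so how alike the libraries were in a single gene does not enter its p. Of 6 erythroid markers 5 were called higher here, while their sums ran in opposite order: 10802 and 6046 CPM in Shox2 cells, against 1555 and 9122 in Pax7 cells.

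The share of Shox2 cells with a UMI of each marker was set beside that of other classes after each cell was thinned to 5000 UMIs, a depth that all Shox2 cells reached. After thinning, a Foxf2 UMI was seen in 16.4% of CrectLJ Shox2 cells (95% Clopper-Pearson interval 11.3 to 22.7) and 22.1% of wild-type Shox2 cells (17.9 to 26.7), against 7.10% and 5.78% of other mesenchyme and 0.741% and 1.08% of ectoderm cells, which should lack the gene. Without thinning the Shox2 shares were 53.1% and 55.6%. Foxf1 was seen in 8.47% (4.82 to 13.6) and 6.98% (4.57 to 10.1) of Shox2 cells, against 8.08% and 2.85% of other mesenchyme and 1.11% and 0.181% of ectoderm cells. Frzb and Epha3 were more widespread, in 46.3% and 56.1%, and in 43.5% and 49.7%, of Shox2 cells. Lhx8 was seen in 64.4% (56.9 to 71.4) and 75.1% (70.3 to 79.5) of Shox2 cells, intervals that hold the shares of the Lhx8 class, which was chosen on it (66.1% and 72.7%). Ptch1 was seen in 36.7% (29.6 to 44.3) and 42.7% (37.6 to 48.0) of Shox2 cells, against 22.4% and 22.5% of Lhx8 cells, 7.56% and 9.07% of Pax7 cells, and 11.5% and 14.4% of ectoderm cells. The Shox2 shares lay above all 3. The median depths before thinning were 16913 and 15010 UMIs in ectoderm cells, below those of Shox2 cells.

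**Figure D5:**
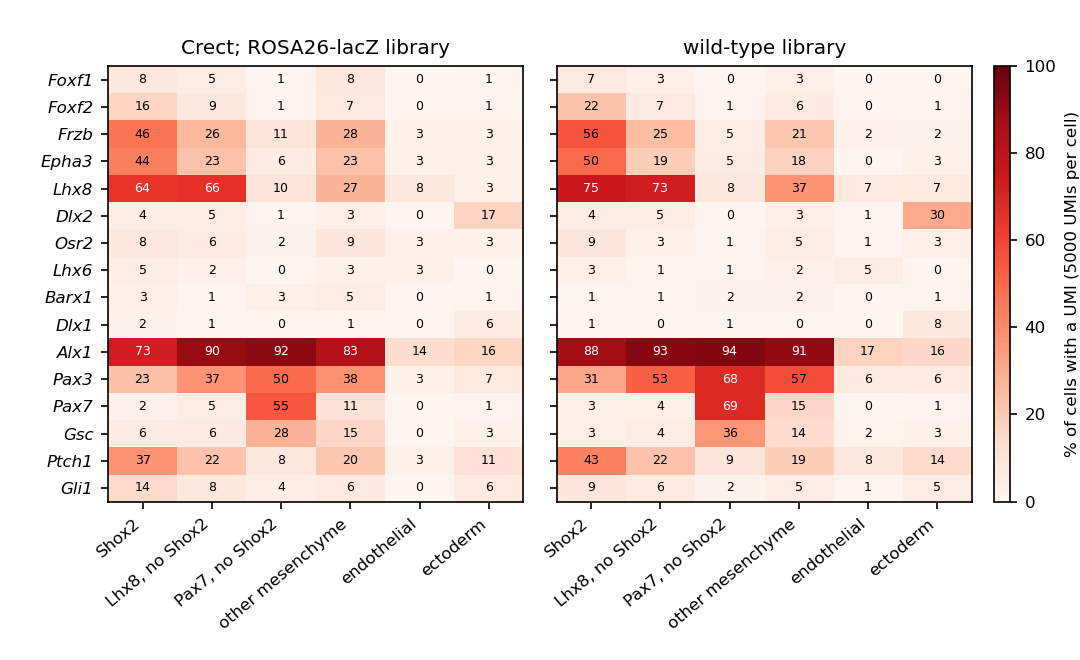
Percent of cells with at least 1 UMI of each gene after thinning each cell to 5000 UMIs (colour and printed value, rounded), by class of cells, in the CrectLJ library (Crect; ROSA26-lacZ, left) and the wild-type library (right). Shox2 cells have the highest Foxf2, Frzb, Epha3 and Ptch1 shares of the 6 classes in both libraries, and Pax7 cells the highest Pax3, Pax7 and Gsc shares.

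No link between markers within the Shox2 cells was detectable at this depth. Foxf2 was seen in 3 of 15 CrectLJ Shox2 cells with a Foxf1 UMI (20.0%) and in 26 of 162 without (16.0%), and in 6 of 25 (24.0%) and 73 of 333 (21.9%) wild-type cells. Ptch1 was seen in 37.9% of CrectLJ cells with a Foxf2 UMI and 36.5% of those without, and in 41.8% and 43.0% of wild-type cells. In each of these pairs the binomial intervals overlapped, and thinned counts leave a weak link undetectable.

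Summing cells gave more precision. All UMIs were used to divide the Shox2 cells into Foxf-positive (at least 1 Foxf1 or Foxf2 UMI: 106 in CrectLJ and 216 in the wild-type library) and Foxf-negative (71 and 142), with median depths of 23550 and 18010 UMIs against 20905 and 16029. Of 10008 genes tested without Foxf1 and Foxf2, 8 (0.0799%) were called higher and 55 (0.55%) lower in Foxf-positive cells. DESeq2 called 0 and 2 (30 and 52 at an unadjusted p under 0.05), and edgeR without a filter on low counts 0 and 0 (241 and 286 unadjusted). Ptch1 was among the higher: 138.1 and 122.0 CPM in Foxf-positive cells, against 72.4 and 90.2 in Foxf-negative cells (log2 fold change 0.62 ± 0.11, edgeR adjusted p = 1.28e-06). That call was lost within the UMI window. The calls of all genes named here for this split were lost without the filter. With DESeq2, which called only 2 genes lower in all, the calls of the higher genes and of Hba-a1 were lost as well. Dlk1 was at 181.3 and 106.3 in Foxf-positive cells, against 77.6 and 79.5, and Pdgfc, a platelet-derived growth factor, at 28.6 and 25.7 in Foxf-positive cells, against 15.0 and 14.0. Foxd2 was at 15.5 and 10.5 in Foxf-positive cells, against 5.87 and 4.94. Genes lower in Foxf-positive cells included Irx3, an Iroquois factor (19.4 and 25.2, against 59.3 and 46.1), Zfhx3, a zinc-finger homeobox gene (86.9 and 127.3, against 193.6 and 181.2), and Dkk2 (17.9 and 17.2, against 42.4 and 30.1). These 3 were also called lower in Shox2 cells as a whole. Globin genes made up the largest lower changes, and all 3 globin-rich Shox2 barcodes were Foxf-negative: Hba-a1 was at 211.5 and 430.7 in Foxf-positive cells, against 6524 and 1902. Without barcodes of other cell types 9 genes were called higher and 24 lower.

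Shox2 cells were a smaller share of the gated mesenchyme in CrectLJ, 3.23% (95% Clopper-Pearson interval 2.77 to 3.73), than in the wild-type library, 5.72% (5.16 to 6.32). The share was also smaller in CrectLJ at equal depth, 1.14% against 2.46% with cells thinned to 5000 UMIs, and 3.15% against 6.64% within the UMI window. With 1 library each, dissection and genotype cannot be told apart for this difference. Among 8015 genes with at least 100 UMIs in the Shox2 cells, 44 had a CrectLJ level at least 2 times that of the wild-type library and 173 a level at most 0.5 times. The most extreme genes had like ratios in the other mesenchyme. Hist1h1a, a linker histone gene, had a ratio of CrectLJ over wild-type of 0.123 in Shox2 cells and 0.148 in other mesenchyme, and Hist1h1b one of 0.155 and 0.137. The predicted gene Gm5900 had 49.2 (95% Poisson interval 20.6 to 154) and 37.4, though predicted genes of this kind may share reads with near-identical copies and are uncertain. The transgenes were counted in CrectLJ alone. Cre had 2 UMIs in 2 of its 177 Shox2 cells (1.13%, interval 0.137 to 4.02), a share near that of other mesenchyme (1.34%) and far below that of ectoderm cells (56.8%). LacZ was likewise in 2 Shox2 cells (1.13%), against 2.45% of other mesenchyme and 30.3% of ectoderm cells.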

How the data were processed

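Droplet 3' single-cell RNA was measured in 2 libraries, each from pooled E11.5 tissue. The deposited matrices hold UMI counts per gene and barcode, made by the authors with Cell Ranger 2.0 on mm10, per the submitters' processing notes. The barcode filter and the use of strand are not given in the sources used here, so antisense and overlapping genes could share reads. All 27998 genes of the tables were read, and 98.74% of their IDs were found in GENCODE vM21 (GRCm38), which gave gene positions. Cells and gene lists (30 lists, 638 genes) were chosen with earlier results of these data known.

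Barcodes above 10% mitochondrial UMIs were left out (207 in CrectLJ and 57 in the wild-type library), and no clustering was repeated. Doublets were not removed in the main results. An alternative left out the barcodes with the highest Scrublet scores, 380 in CrectLJ and 508 in the wild-type library. Those numbers were set by an assumed doublet rate of 0.8% per 1000 barcodes, not by Scrublet's own calls. UMI counts were summed per library and class and tested with edgeR 4.0.16 (R 4.3.3) by the quasi-likelihood test, with TMM scaling, filterByExpr and the terms library and class. Genes that defined a gate were not tested, and the given markers have values only. DESeq2 1.42.0 was the alternative test. Adjusted p-values are Benjamini-Hochberg over all genes tested. With 1 library per genotype, the 2 libraries serve as the replicates of each class. The p-values cover only how far the class difference varied between the libraries. Named genes were the 5 largest called changes each way with a mean of at least 20 CPM and the same sign in both libraries, then up to 2 each way per list, up to 40 in all, and 8, 5 and 8 each way in the Lhx8, Pax7 and Foxf comparisons. Other list members are named for their role, after their values were seen, and some genes that the rule or the lists hold are not reported here. Shares have Clopper-Pearson intervals and ratios of counts Poisson intervals at 95%, which cover counting error only. The scripts were tested on simulated data. Alternatives were other scalings, filters, gates, UMI windows and cell subsets. Promoter sequences are from RefSeq (GRCm38.p6).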

Additional observations from a re-analysis of the deposited data

Results flagged for a closer look

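Among the given markers, the gate genes and the forkhead, maxillary, nasal and distal lists, 7 genes had a ratio of Shox2 cells over other mesenchyme above 1 in one library and below 1 in the other, with at least 1 of the 95% Poisson intervals clear of 1. The difference between libraries was not tested. Foxf1 had a ratio of 0.946 in CrectLJ and 2.03 in the wild-type library. Foxq1, a forkhead gene, had 0.421 and 3.41, and Foxo1 had 0.680 and 1.10. Osr2 had 0.954 and 1.83, with levels in Shox2 cells of 23.4 and 23.9 CPM, against 24.6 and 13.1 in other mesenchyme, so the libraries differed in the other mesenchyme. Tfap2a had 1.64 and 0.820, and Tfap2b had 1.44 and 0.537. Hand2 had 0 and 4.54 and was near 0 in every sum, with 0 and 0.777 CPM in Shox2 cells, against 0.182 and 0.171 in other mesenchyme.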

How the results depend on the processing

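Shox2 cells over other mesenchyme had 158 genes called higher, but 100 with DESeq2, 67 at a fold of 2, 250 without the Asb4 and Sox9 limits, and 269 against mesenchyme with 0 Shox2 UMIs under the same limits. The 494 lower calls became 192 with DESeq2 and 842 without the limits. The block on library, which is the replicate block here, decided many calls. With no replicate block edgeR called 0 and 0 genes (232 higher and 716 lower at an unadjusted p under 0.05), 0 and 0 against Lhx8 cells (196 and 336 unadjusted), 102 and 83 against Pax7 cells, and 0 and 0 in the Foxf split (38 and 104 unadjusted). Against Lhx8 cells DESeq2 called 52 higher and 68 lower, against Pax7 cells 193 and 164, and in the Foxf split 0 and 2 (30 and 52 unadjusted). The Foxf split gave 0 and 0 with no expression filter (241 and 286 unadjusted), 5 and 17 within a window of 10000 to 30000 UMIs per cell, and 24 lower without barcodes of other cell types.

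The log2 fold change of Pf4 turned to 0.31 in the UMI window and 0.31 without the barcodes of highest Scrublet score. In the Foxf split, with the UMI window and then without barcodes of other cell types, Hba-a1 turned to 0.10 and 0.0535, Hbb-bh1 to 0.058 and 0.0396, Alas2 to 0.19 and 0.24 and Car2 to 0.0874 and 0.12, and Hbb-y to 0.0064 in the window. The globin-rich barcodes lie outside both of those settings. The cause of the other changes was not tested.

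The share of Shox2 cells in gated mesenchyme was 8.11% in CrectLJ and 12.6% in the wild-type library at 1 or more Shox2 UMIs, 1.06% and 2.32% at 4 or more, and 1.14% and 2.46% after thinning, with 6.64% in the wild-type UMI window. Library ratios of at least 2 numbered 24 at 4 or more Shox2 UMIs, and ratios of at most 0.5 numbered 109 with TMM scaling.

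Of the 37 named calls against other mesenchyme, DESeq2 lost 3 (Col9a1, Efnb2 and Tubb3), a gate of 1 or more Shox2 UMIs lost 11, and removal of the library term lost 37. No count of calls could be made without 1 library, since no residual degree of freedom is left. At 177 CrectLJ cells, rare transcripts such as Foxf1 limit what a share can show.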
